A study of Homo sapiens with 9 samples.

Results

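FBXO5 and FBXO43 are the paired F-box inhibitors of the anaphase-promoting complex, and each was targeted by 10 guides in a pooled sgRNA screen of U251 cells, an established human glioma line. All 20 guides named for these genes were taken from a table of 11170 guides against 1117 genes, whatever their counts. Each guide was followed by itself through 9 libraries. The genes themselves were chosen with earlier results of these data known. The anaphase-promoting complex (APC/C) is the ubiquitin ligase that marks cyclins, securin and other cell cycle proteins for destruction in mitosis and early in the following interphase. FBXO5, also called EMI1, blocks it from DNA synthesis up to mitosis, which lets cyclin A and geminin accumulate and prevents a repeated round of replication. It is itself destroyed as mitosis begins, after PLK1 phosphorylates it and the SCF ligase with BTRC or FBXW11 takes it up. FBXO43, or EMI2, is the relative best known from eggs, where it holds the APC/C in check until fertilisation. The series title connects FBXO5 with temozolomide sensitivity and with the adaptor DOK6, and no guide in the table was named for DOK6.

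All 9 libraries came from U251 cells that stably carried sgRNAs, and they formed 3 groups of 3 numbered libraries by dose of temozolomide, a DNA-alkylating drug used against glioma. The groups were 0 µM, 200 µM and 1500 µM in the sample titles, with 72 hours of exposure for the drugged cells. Elsewhere in the labels these figures stand with nM instead, so here the doses only name the groups. The labels name neither the nuclease nor separate cultures for the numbers, so p-values measure how far these libraries scatter, and that scatter may be technical. A guide's count is the number of reads that carried it, and its level is given in CPM, the usual count scaled to the library's total. A guide that stops cells from dividing should lose share and one that helps them under the drug should gain it, which is the question the dose comparisons ask.

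Library totals were 1852340 to 2790563 reads, and 10.0% to 15.2% of all guides had no read in a library. A count of 0 allows up to 3 reads, or 1.08 to 1.62 CPM, and such limits and all intervals below cover counting error alone. Libraries that share a replicate number resembled each other across doses, so values within a number are given beside each comparison. A guide against another gene, UBE2A.7, held 18.6% of the reads in replicate 2 at 1500 µM, where the median gene's log2 ratio to 0 µM in the same number was -0.24.

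Guides against FBXO5 were among the scarcest of the screen in the libraries without drug. Their summed count at 0 µM was 20 reads in replicate 1, 243 in replicate 2 and 62 in replicate 3, or 10.8, 105 and 33.5 CPM. At 200 µM the sums of replicates 1, 2 and 3 were 28, 168 and 30 reads, or 13.5, 84.9 and 12.2 CPM. At 1500 µM they were 63, 130 and 131 reads, or 22.6, 51.1 and 62.0 CPM. The ranges of the 3 doses overlapped. Replicate 2 was the highest library at 0 and at 200 µM, and replicate 3 was at 1500 µM. The mean at 0 µM was 49.8 ± 49.3 CPM (SD, n = 3), against 873 CPM for the median gene, a 17.5-fold gap.

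Only 6 of the 1117 genes had a lower mean than FBXO5 at 0 µM, 1 did at 200 µM and 4 did at 1500 µM. The 6 at 0 µM, named after their values were seen, were the splicing factor SMU1, the proteasome core subunits PSMA3 and PSMB3, the mitotic kinase PLK1, the mitochondrial chaperone HSPA9 and the unfolding ATPase VCP. SMU1 had 14.5 ± 6.97 CPM, PLK1 had 36.6 ± 14.3 CPM and VCP had 49.6 ± 33.0 CPM (SD, n = 3), and the spreads of these neighbours and FBXO5 overlapped. In single libraries at 0 µM, 0.358% to 3.85% of genes lay below FBXO5. The starting pool was not analysed here, so guides that were rare from the start and guides lost while the cells grew cannot be told apart.

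The scarcity of FBXO5 lay in nearly all of its guides. Of its 90 guide-by-library values, 56 were 0 (62.2%), against 12.4% over all guides and a median of 7 of 90 per gene, and 9 genes had more. No FBXO5 guide reached 10 reads in all 9 libraries, and 31 genes of the screen, FBXO5 among them, had none that did. FBXO5.1 had no read in any library, and FBXO5.3 was seen only in replicate 2, with 5 reads at 0 µM, 6 at 200 µM and 0 at 1500 µM. The other 8 guides each reached 10 reads somewhere.

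Which FBXO5 guides were present differed between replicate numbers, and within each number between doses as well. Guides with at least 10 reads in some library of the number were 3 in replicate 1, 5 in replicate 2 and 5 in replicate 3, and only FBXO5.9 was among them in all 3 numbers. Over all guides of the screen, 82.9% met that mark in all 3 numbers. FBXO5.2 was found in replicate 2 alone, at 81, 73 and 24 reads with rising dose, and was at 0 in the other 6 libraries. FBXO5.4 had 76, 12 and 28 reads in replicate 2, 3 reads in replicate 1 at 0 µM and none elsewhere. FBXO5.6 had 53 reads in replicate 3 at 1500 µM and a single read in the other 8 libraries together. Replicate 2 thus held all reads of FBXO5.2 and 96.9% of the CPM of FBXO5.4, and replicate 3 held 97.9% of that of FBXO5.6.

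FBXO5.9 had reads in 7 of the 9 libraries, FBXO5.5 in 5 and FBXO5.8 in 4. With rising dose FBXO5.9 had 9, 0 and 12 reads in replicate 1, 39, 51 and 53 in replicate 2 and 25, 28 and 0 in replicate 3. FBXO5.8 had none in replicate 1, 29, 26 and 25 in replicate 2 and 27, 0 and 0 in replicate 3. In replicate 2 the counting intervals of FBXO5.9 and FBXO5.8 at either drug dose against 0 µM included 1, and in replicate 3 both guides were absent at the highest dose. FBXO5.8 in that number went from 27 reads at 0 µM to none at 1500 µM. The upper limit of its exact counting interval, 1500 against 0 µM, was 0.128 times. FBXO5.9 went from 25 reads to none between these doses, with an upper limit of 0.139 times.

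Other FBXO5 guides appeared at 1500 µM in libraries whose untreated partner had few reads or none. In replicate 3 FBXO5.5 went from 0 reads at 0 µM through 2 at 200 µM to 40 at 1500 µM. The lower limit of its exact 95% counting interval, 1500 against 0 µM, was 9.08-fold. FBXO5.6 went from 0 through 0 to 53 reads there, with a lower limit of 12.2-fold. FBXO5.10 went from 0 through 0 to 26 reads in replicate 1, with a lower limit of 4.36-fold. In replicate 3 it went from 3 through 0 to 30 reads, an 8.77-fold ratio of 1500 to 0 µM with an exact 95% counting interval of 2.73 to 44.9. FBXO5.7 had 0, 28 and 19 reads in replicate 1 and 7, 0 and 8 in replicate 3. FBXO5.5 ran the other way in replicate 2, with 13 reads at 0 µM and none at either drug dose, and in replicate 1 it had 7, 0 and 6 reads.

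Taken one guide and one number at a time, FBXO5 gave 30 series of 3 doses, of which 12 had no read, 5 stayed under 10 reads, 9 reached 10 reads at some doses and 4 had at least 10 at every dose. The 4 series with at least 10 reads throughout, those of FBXO5.2, FBXO5.4, FBXO5.8 and FBXO5.9, were all in replicate 2. Among them FBXO5.4 at 200 µM was at 0.184 times its level at 0 µM (exact counting interval 0.0912 to 0.341), and FBXO5.2 at 1500 µM was at 0.269 times (0.163 to 0.429). Over all guides, 75.0% of 33510 such series had at least 10 reads at every dose and 5.75% had none. In CPM, none of the 4 moved in 1 direction over both dose steps. Few single FBXO5 guides therefore had enough reads to carry a comparison.

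FBXO43 guides were better represented. With rising dose their summed count was 596, 808 and 1171 reads in replicate 1, or 322, 391 and 420 CPM. It was 1432, 1143 and 1227 reads in replicate 2, or 620, 577 and 482 CPM, and 472, 771 and 822 reads in replicate 3, or 255, 313 and 389 CPM. Replicate 2 was the highest library and replicate 3 the lowest at each dose, and the doses overlapped. With rising dose the mean was 399 ± 194, 427 ± 136 and 430 ± 47.4 CPM (SD, n = 3), and 13.6%, 13.9% and 15.8% of genes lay below it.

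A few guides carried most FBXO43 reads, and which one led depended on the number. With rising dose FBXO43.4 had 134, 111 and 199 reads in replicate 1, 777, 559 and 458 in replicate 2 and 153, 156 and 316 in replicate 3. It made up 54.3% of the gene's reads in replicate 2 at 0 µM (exact Clopper-Pearson 95% interval 51.6% to 56.9%). FBXO43.5 led in replicate 1, with 268, 358 and 435 reads with rising dose, and had 111, 96 and 118 in replicate 2 and 67, 85 and 106 in replicate 3. FBXO43.7 had 47 to 208 reads in every library, with 141, 131 and 208 in replicate 1, 56, 76 and 47 in replicate 2 and 65, 77 and 92 in replicate 3. These 3 guides were the ones with at least 10 reads in all 9 libraries, where the median gene had 6 such guides.

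FBXO43.10 was high in replicate 2 and almost absent in replicate 1 without drug. Its reads with rising dose were 6, 59 and 72 in replicate 1, 383, 298 and 305 in replicate 2 and 111, 262 and 126 in replicate 3. In replicate 1 the level at 1500 µM was 7.97 times that at 0 µM (exact counting interval 3.49 to 22.4), and in replicate 2 it was 0.723 times (0.620 to 0.842). The same guide thus lay on opposite sides of its untreated partner in these 2 numbers, and in replicate 3 the ratio was 0.996 (0.765 to 1.30). Guide intervals off 1 are common here. Of 26182 guide ratios at this comparison with at least 10 reads in both libraries, 31.4% had an interval above 1 and 32.7% below. Over the 10 guides, log2 levels of FBXO43 correlated at a median of 0.80 between libraries of the same number and other doses and at 0.47 between different numbers at 1 dose, as a description of 9 pairs each. For FBXO5 the medians were 0.48 (range -0.24 to 0.91) and 0.13 (range -0.63 to 0.43).

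Scarcer FBXO43 guides had uneven counts across doses, and whether they moved more than abundant ones was not tested. With rising dose FBXO43.2 had 0, 0 and 82 reads in replicate 1, 23, 54 and 54 in replicate 2 and 5, 33 and 36 in replicate 3. FBXO43.3 had 10, 75 and 128 reads in replicate 1, 5, 13 and 0 in replicate 2 and 13, 35 and 52 in replicate 3. FBXO43.1 had 4, 0 and 16, then 52, 26 and 108, then 11, 99 and 70 reads in replicates 1, 2 and 3. For FBXO43.2 each library at 1500 µM was above its own untreated partner, while FBXO43.3 was above it in replicates 1 and 3 and absent in replicate 2.

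FBXO43.9 stayed under 40 reads in every library, FBXO43.8 did so in 8 of 9, and FBXO43.6 was seen mainly in replicate 1. With rising dose FBXO43.8 had 6, 0 and 20 reads in replicate 1, 22, 13 and 106 in replicate 2 and 15, 0 and 10 in replicate 3. FBXO43.9 had 0, 39 and 11, then 3, 8 and 29, then 31, 24 and 14 reads, so that replicates 1 and 2 were higher at 1500 than at 0 µM and replicate 3 was lower. FBXO43.6 had 27 and 35 reads in replicate 1 at 0 and 200 µM and none there at 1500 µM, and at most 2 reads in any other library. Of the 30 series of FBXO43, 18 had at least 10 reads at every dose. In CPM, 2 of these were higher at each step (11.1%, against 15.7% of such series over all guides) and 3 were lower at each step (16.7%, against 17.4%).

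At 1500 against 0 µM neither inhibitor passed the test on summed counts. FBXO43 had a log2 fold change of 0.22 ± 0.42 (SE, n = 3 libraries a dose, edgeR quasi-likelihood test, adjusted p over 1117 genes 1.00), and FBXO5 had -0.03 ± 0.91 (adjusted p 1.00). No gene was called in that test (0% of 1117), with 3 genes (0.269%) at an unadjusted p under 0.05, and DESeq2 called 1 gene, UBE2A (0.0895%), with 0.358% at an unadjusted p under 0.05. With the replicate number as a block the log2 fold change was 0.31 ± 0.21 for FBXO43 and 0.36 ± 0.63 for FBXO5, and again neither passed (edgeR adjusted p 0.810 and 0.942), where UBE2A alone was called and 6.62% of genes had an unadjusted p under 0.05. DESeq2 with the block called 3 genes (0.269%), neither inhibitor among them. The sign for FBXO5 also turned without replicate 2 at 0 µM (1.14) and without replicate 1 at 1500 µM (0.29), and that for FBXO43 turned without replicate 3 at 0 µM (-0.040).

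Within numbers, both genes were higher at 1500 µM in replicates 1 and 3 and lower in replicate 2. The FBXO5 level at 1500 µM was 2.09 times that at 0 µM in replicate 1 (exact 95% counting interval 1.25 to 3.65), 0.486 times in replicate 2 (0.389 to 0.603) and 1.85 times in replicate 3 (1.36 to 2.55). For FBXO43 the ratios were 1.30 (1.18 to 1.44), 0.778 (0.720 to 0.840) and 1.53 (1.36 to 1.71). An interval off 1 is common here, since 76.4% of such ratios over all genes were off it. Of all genes, 98.2% had a lower log2 ratio than FBXO5 in replicate 1, 0.716% in replicate 2 and 98.2% in replicate 3, so the gene stood near opposite ends of the screen in different numbers. FBXO43 stood at 82.5%, 31.8% and 96.2%.

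Of the guides, 4 of FBXO5 and 9 of FBXO43 had at least 10 reads in at least 3 of the 9 libraries and were tested, and none passed (0% of 10337 guides in edgeR, with 0.203% at an unadjusted p under 0.05, while DESeq2 called none, with 0.59% at that mark). With the block edgeR again called none, with 2.61% of guides at an unadjusted p under 0.05, and DESeq2 called 0.058%, no member among them. The lowest p among FBXO5 guides was that of FBXO5.2, with a log2 fold change of -1.79 ± 2.92 (SE, unadjusted p 0.559, adjusted p 1.00), and all its reads were in replicate 2. Among FBXO43 guides it was that of FBXO43.2, with 2.35 ± 1.68 (unadjusted p 0.203, adjusted p 1.00), and DESeq2 with the block gave it 3.23 ± 1.51 (unadjusted p 0.0323, adjusted p 0.986), in a fit where 4.67% of guides had an unadjusted p under 0.05. As a description of those past the filter, the 9 tested FBXO43 guides had a median of 0.47 with 6 above 0, against -0.08 and 43.9% above 0 over all guides. FBXO43.2 was higher beyond its counting interval in all 3 numbers. In replicate 1, from 0 reads, the lower limit of that interval was 14.4-fold. The ratio was 2.13-fold (1.29 to 3.64) in replicate 2 and 6.32-fold (2.47 to 20.6) in replicate 3. FBXO43.2 was the only one of the 12 member guides with reads in every number that was higher in all 3, and 3.92% of 9583 such guides of the screen were. None of the 12 was lower in all 3 numbers, where 3.95% of the screen's guides were.

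The filter on low counts divided the FBXO5 guides at this comparison. With rising dose the 4 tested guides summed to 12, 0 and 12 reads in replicate 1, 225, 162 and 130 in replicate 2 and 52, 28 and 0 in replicate 3. The 6 guides left out summed to 8, 28 and 51, then 18, 6 and 0, then 10, 2 and 131 reads. The log2 fold changes of all 4 tested guides were below 0 at 1500 against 0 µM (median -1.38), whereas the left-out guides held all 131 FBXO5 reads of replicate 3 at 1500 µM. A summary over the tested guides alone therefore leaves out the part of FBXO5 that was higher in that library.

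At 200 against 0 µM the 2 inhibitors again did not pass. FBXO5 had a log2 fold change of -0.48 ± 1.08 and FBXO43 of 0.04 ± 0.44 (SE, n = 3 libraries a dose, edgeR adjusted p 0.998 for both), and no gene was called (0% of 1117, with 0% at an unadjusted p under 0.05, and none in DESeq2, with 0.269%). With the block the values were -0.55 ± 0.53 and 0.10 ± 0.18 (edgeR adjusted p 0.840 and 0.913), again with no gene called and 5.37% at an unadjusted p under 0.05. DESeq2 with the block called 0.0895% of genes, neither inhibitor among them. The comparison shares its untreated libraries with the previous one. Without replicate 2 at 0 µM the FBXO5 value was 0.73, and without replicate 2 at 200 µM it was -1.99. The FBXO43 value was -0.06 without replicate 1 at 0 µM, -0.22 without replicate 3 at 0 µM and -0.24 without replicate 2 at 200 µM.

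FBXO5 was lower at 200 µM in replicates 2 and 3, at 0.807 (exact counting interval 0.659 to 0.986) and 0.364 (0.227 to 0.571) times its untreated level, and in replicate 1 the ratio was 1.25 (0.682 to 2.35). FBXO43 was at 1.21 (1.09 to 1.35), 0.931 (0.861 to 1.01) and 1.23 (1.09 to 1.38) times in replicates 1, 2 and 3, and 72.6% of all gene ratios were off 1. No member guide passed (0% of 10337 in edgeR, with 0.135% at an unadjusted p under 0.05, and none in DESeq2, with 0.387%). With the block edgeR called none, with 2.23% at an unadjusted p under 0.05, and DESeq2 called 0.058%, no member among them, with 4.09% at that unadjusted p. FBXO5.4 had the lowest p of its gene, with a log2 fold change of -2.70 ± 2.77 (unadjusted p 0.360, adjusted p 1.00), and FBXO43.3 that of its own, with 1.79 ± 1.46 (unadjusted p 0.255, adjusted p 1.00). FBXO43.3 was higher in all 3 numbers, 6.72-fold (3.46 to 14.6), 3.03-fold (1.01 to 10.9) and 2.02-fold (1.05 to 4.17), as 5.46% of 9474 guides were. FBXO43.4, the most abundant guide, was lower in all 3, at 0.742 (0.572 to 0.961), 0.839 (0.752 to 0.937) and 0.767 (0.610 to 0.965) times, as 2.27% were. These were 1 guide each way of the 10 member guides with reads in every number, and neither passed the test (edgeR adjusted p 1.00 for both).

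At 1500 against 200 µM the summed values were above 0 for both genes and did not pass. FBXO5 had a log2 fold change of 0.44 ± 0.93 and FBXO43 of 0.17 ± 0.35 (SE, n = 3 libraries a dose, edgeR adjusted p 0.999 for both), with no gene called (0% of 1117, with 0.0895% at an unadjusted p under 0.05), and DESeq2 called 1, UBE2A (0.0895%), with 0.179% at an unadjusted p under 0.05. With the block the values were 0.88 ± 0.76 and 0.20 ± 0.18 (edgeR adjusted p 0.863 and 0.875), with no gene called and 6.62% at an unadjusted p under 0.05. DESeq2 with the block called 24 genes (2.15%), FBXO43 not among them, and gave FBXO5 no adjusted p. Without replicate 2 at 200 µM the FBXO5 value was 1.95 (edgeR unadjusted p 0.0530, adjusted p 1.00), and without replicate 3 at 200 µM it was 0.02. The FBXO43 value was -0.013 without replicate 3 at 200 µM and -0.0091 without replicate 2 at 1500 µM.

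In replicate 3 FBXO5 went from 12.2 to 62.0 CPM between the 2 drug doses, a ratio of 5.09 (exact counting interval 3.40 to 7.85), and 99.7% of genes had a lower log2 ratio in that number. The 30 reads at 200 µM were 28 of FBXO5.9 and 2 of FBXO5.5, and the 131 at 1500 µM were 53 of FBXO5.6, 40 of FBXO5.5, 30 of FBXO5.10 and 8 of FBXO5.7, so of these guides FBXO5.5 alone had reads in both libraries. The ratio was 1.67 (1.05 to 2.70) in replicate 1 and 0.602 (0.475 to 0.761) in replicate 2. FBXO43 stood at 1.07 (0.981 to 1.18), 0.835 (0.770 to 0.906) and 1.24 (1.13 to 1.37) in replicates 1, 2 and 3. In replicate 2 the median gene's log2 ratio was -0.30. There 55.3% of genes had a lower log2 ratio than FBXO43 and 3.67% a lower one than FBXO5. Over all genes, 76.7% of such ratios had an interval off 1. No member guide passed (0% of 10337 in edgeR, with 0.203% at an unadjusted p under 0.05, and none in DESeq2, with 0.319%). With the block edgeR called none, with 1.95% at an unadjusted p under 0.05, and DESeq2 called 0.416% of the 10337. Among member guides that DESeq2 fit gave an adjusted p only to FBXO43.4, FBXO43.5 and FBXO43.10, and none of these passed. In edgeR without the block the lowest p-values were those of FBXO5.2, with a log2 fold change of -1.68 ± 3.07 (unadjusted p 0.600, adjusted p 1.00), and FBXO43.8, with 3.22 ± 2.42 (unadjusted p 0.222, adjusted p 1.00). FBXO43.8 was higher in all 3 numbers, as 2.42% of 9453 guides were. Its ratio was 6.34-fold (3.55 to 12.3) in replicate 2. From 0 reads, the lower limits of its exact counting intervals were 3.66-fold in replicate 1 and 2.61-fold in replicate 3. With the block the log2 fold change of FBXO43.8 was 4.68 ± 2.20 in edgeR (unadjusted p 0.0705, adjusted p 1.00) and 4.75 ± 1.55 in DESeq2 (unadjusted p 0.00223), which gave it no adjusted p and where 10.2% of guides had an unadjusted p under 0.05. None of the 10 member guides with reads in every number was lower in all 3, where 6.9% of guides were.

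FBXO43 outnumbered FBXO5 in all 9 libraries, with rising dose by 29.8, 28.9 and 18.6 times in replicate 1, 5.89, 6.80 and 9.44 times in replicate 2 and 7.61, 25.7 and 6.27 times in replicate 3. These are levels of guides in the pool, and they say nothing of the genes' own expression. The log2 ratio of FBXO43 to FBXO5, with 1 CPM added to each, averaged 3.40 ± 1.20 at 0 µM, 4.03 ± 1.11 at 200 µM and 3.33 ± 0.77 at 1500 µM (SD, n = 3). The doses did not differ in this ratio beyond the spread of the libraries, by -0.07 at 1500 against 0 µM, 0.62 at 200 against 0 µM and -0.69 at 1500 against 200 µM (exact two-sided permutation p 1.00, 0.700 and 0.400, each 1.00 after Benjamini-Hochberg adjustment over 3 comparisons). With 3 libraries a dose that test cannot go below 0.1. The sign at 1500 against 0 µM turned without replicate 1 at 0 µM (0.61) and without replicate 3 at 1500 µM (0.28).

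Most core subunits of the complex that these proteins inhibit were also scarce in guides. They were less scarce than FBXO5, and in the median scarcer than FBXO43. Of the 14 core APC/C subunits measured, 9 had a lower mean than FBXO43 at 0 µM and none had a lower mean than FBXO5. Their median was 299 CPM, from 112 ± 11.8 CPM for ANAPC10 to 1218 ± 268 CPM for ANAPC16 (SD, n = 3). Among the 5 coactivators and ubiquitin-conjugating enzymes of the complex, CDC20, the mitotic coactivator, had 64.9 ± 18.3 CPM, and FZR1, the coactivator of early interphase that FBXO5 restrains, had 1105 ± 399 CPM. The chain-elongating enzyme UBE2S had 546 ± 225 CPM and its partner UBE2C had 1284 ± 625 CPM. Of the 6 measured genes that act on FBXO5 turnover, PLK1 alone had a lower mean than FBXO5 at 0 µM. At 200 and 1500 µM the PLK1 mean was the higher, at 52.6 and 46.5 CPM against 36.9 and 45.2 CPM. BTRC, the SCF receptor that binds FBXO5, had 916 ± 194 CPM at 0 µM.

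No gene of the 5 lists drawn around the inhibitors passed the summed-count test in either direction in any comparison in edgeR, with or without the block. DESeq2 with the block called 2 of them at 1500 against 200 µM, both lower. They were the core subunit ANAPC2 (log2 fold change -0.54 ± 0.16, adjusted p 0.0412) and BTRC (-0.35 ± 0.09, adjusted p 0.0182). That fit called 24 of all 1117 genes (2.15%), most of them lower. The 14 core subunits had a median log2 fold change of 0.03 at 1500 against 0 µM, with 8 above 0, beside -0.03 over all genes, from -0.93 ± 0.80 for CDC23 to 0.52 ± 0.52 for ANAPC1 (SE). The 5 coactivators and enzymes had a median of -0.15, from -0.50 ± 0.42 for FZR1 to 0.76 ± 0.56 for CDC20. The 6 measured of 9 mitotic checkpoint genes and relatives that restrain the APC/C had 0.07, from -1.05 ± 0.78 for the kinase TTK to 0.36 ± 0.39 for MAD2L2. The 6 measured of 8 genes of FBXO5 turnover had -0.11, from -0.67 ± 1.29 for the scaffold CUL1 to 0.46 ± 0.68 for PLK1. The 6 measured of 17 APC/C targets had -0.11, from -0.58 ± 0.28 for the F-box protein SKP2 to 0.46 for PLK1, which is on both lists. Adjusted edgeR p-values of the genes named in these lists were 1.00 at 1500 against 0 µM.

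Over the 9 libraries, genes whose summed level ran closely with that of FBXO5 included RCHY1, a RING ubiquitin ligase, and TRIM37, another ubiquitin ligase, with Pearson r of 0.94 and 0.93 on log2(CPM + 1). Both were far more abundant than FBXO5, with means of 769.8 and 1215 CPM over the libraries against 44.0 CPM. For FBXO43 the 3 closest genes were KLHL14, UFD1L and USP27X, with r of 0.97, 0.95 and 0.95. The 2 inhibitors correlated with each other at 0.70, and 88.3% of genes had a lower r with FBXO5. These values are descriptions of 9 libraries, 3 of each number, in which libraries of a number resemble each other. With each number's mean subtracted the r of these 5 genes lay between 0.81 and 0.88, and that between the 2 inhibitors was 0.59. Other genes were then the closest, TRIM65 to FBXO5 (r 0.95) and KLHL23 to FBXO43 (r 0.96).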

How the data were processed

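The deposited values are raw read counts for each sgRNA in 1 table, whole numbers whose totals differ between libraries. Per the submitters' processing notes, cutadapt 1.18 and MAGeCK 0.5.8 were used. How mismatches were handled is not given here. Members were matched by the table's gene column. The members, lists and tests were chosen with earlier results of these data known.

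Counts of the 10 guides of each gene were summed, and each pair of doses was tested with edgeR 4.0.16 (TMM, robust quasi-likelihood fit, the 6 libraries of the pair, no block) over all 1117 genes, each with at least 10 reads in at least 3 libraries. Guides were tested likewise, 10337 of 11170 passing that filter. P-values were adjusted by Benjamini-Hochberg, with a threshold of 0.05. The SE is the log2 fold change over the root of the F statistic. DESeq2 1.42.0 was an alternative, run in R 4.3.3. Within a replicate number, ratios of 2 levels have exact conditional binomial 95% intervals, from scipy 1.17.1. PCR reads without molecular identifiers are not independent molecules, so these cover counting error only. Scripts were tested on simulated data.

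The replicate numbers were taken to pair the samples from the data, not the labels: over 9 same-number pairs, the correlation of their departures from the mean of each dose, across tested guides, was 0.66 to 0.78. Named guides are the one of lowest p per gene and comparison, with all 20 given as reads. Named genes of each list are those past the test and, at 1500 against 0 µM, its highest and lowest. The 3 genes of highest r were named per inhibitor, except 1 that is not reported here. Genes named beyond this were chosen after their values were seen.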

Additional observations from a re-analysis of the deposited data

How the results depend on the processing

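No setting called FBXO5, FBXO43 or any of their tested guides, although not all of them had an adjusted p in DESeq2. With the block at 1500 against 200 µM it gave none to FBXO5. Of the tested member guides it gave one there only to FBXO43.4, FBXO43.5 and FBXO43.10, so that fit could not call the others. DESeq2 without the block gave none to FBXO5.2 in any comparison. The direction of the summed FBXO5 value at 1500 against 0 µM (-0.03) turned with the replicate block (0.36), with DESeq2 and the replicate block (0.38) and with the block over all 9 libraries (0.45, added after seeing the data). No blocked fit changed a call for either gene. The ratio of FBXO43 to FBXO5 at that comparison turned to 0.050 with 10 CPM added in place of 1 CPM. Leaving out 1 library at a time, the summed FBXO5 value ranged from -0.50 to 1.14 at 1500 against 0 µM, from -1.99 to 0.73 at 200 against 0 µM and from 0.02 to 1.95 at 1500 against 200 µM. That of FBXO43 ranged from -0.040 to 0.66, from -0.24 to 0.52 and from -0.013 to 0.44. The ratio ranged from -0.50 to 0.61, from 0.19 to 1.31 and from -1.33 to -0.33. FBXO5.2 ranged from -7.83 to 6.05 at 1500 against 0 µM and from -7.87 to 6.22 at 1500 against 200 µM, and FBXO5.4 from -7.78 to 1.02 at 200 against 0 µM. Each high value came from leaving out replicate 2 at the lower dose, which held the reads. At 0 µM, 0.0895% to 1.34% of genes lay below FBXO5 and 9.49% to 19.3% below FBXO43. Calls over the whole table, none of them a member, were most numerous with DESeq2 and the block together. At 1500 against 0 µM DESeq2 called 1 gene without and 3 genes with the block, edgeR called 1 gene with the block on the 6 or on all 9 libraries, and DESeq2 with the block called 6 guides. At 200 against 0 µM DESeq2 with the block called 1 gene and 6 guides. At 1500 against 200 µM DESeq2 called 1 gene, and with the block 24 genes and 43 guides. The cause was not tested. Of the FBXO5 guides, 6 of 10 had too few reads to be tested, where 92.5% of all guides passed the filter.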
